A study of Mus musculus with 2 samples.

Results

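The 9 genes described here are complement component and regulator genes other than those of the C1q chains: C2, C3, C4a, C4b, Cfb, C1ra, C1s1, Serping1 and Cd55. They were taken as a named list and matched by symbol to the gene IDs of GENCODE M21, and all 9 were found among 55536 annotated genes. Their RNA was measured in whole adrenal gland of 2 male mice aged 8 to 10 months. The strain was B6CASTF1/J, the first-generation hybrid of C57BL/6J and CAST/EiJ. The labels name no treatment, time point or second group. The libraries are 1 group with biological replicates 1 and 2, tied by the labels to animals 2 and 4. Each library was made from 300 ng of total RNA with a strand-keeping kit. Expected counts on annotated genes, rounded, summed to 29994864 in replicate 1 and 33987415 in replicate 2. Reads were quantified against the mm10 reference, and what this does to reads of CAST/EiJ alleles was not tested.

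Complement is a cascade of plasma proteins that marks and lyses targets. In the classical pathway, C1q bound to a target activates the proteases C1r and C1s, which cleave C4 and C2 into a C3 convertase. In the alternative pathway, C3 binds factor B, which factor D cleaves to form a second convertase. C1 inhibitor, the product of Serping1, blocks C1r and C1s, and decay accelerating factor, the product of Cd55, takes convertases apart at the cell surface. The liver makes most of the plasma proteins, and fibroblasts, macrophages, endothelium and fat cells make several of them locally. C4a and C4b lie in the class III region of the major histocompatibility complex, beside the 21-hydroxylase genes that the adrenal cortex uses for steroid synthesis. C4b encodes complement C4. The C4a copy is known as sex-limited protein, and GENCODE M21 gives it no protein-coding transcript.

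The pair C4a and C4b is near-identical, and 2 stretches show how far reads can tell them apart. On mm10, C4b lies at chr17:34728380-34743882 and C4a at chr17:34809092-34823464, both on the minus strand. C4a ends 4530 bases from Cyp21a1 (chr17:34801348-34804561), and C4b ends 6127 bases from the pseudogene Cyp21a2-ps. The full-length transcripts C4a-207 (5371 bases) and C4b-201 (5379 bases) were aligned over the coding part of C4b-201. Of 5204 aligned columns, 201 differed, an identity of 96.1%, and C4a lacked 10 bases in 2 gaps, of which 1 gap was not a multiple of 3. The first pair below is the 60-base coding window with the most differences, in exon 21, at chr17:34816086-34816145 in C4a and chr17:34735430-34735489 in C4b. The second pair is the window with the most differences in the intron 39 bases that short transcripts of both genes retain, at chr17:34809695-34809754 in C4a and chr17:34728984-34729043 in C4b. Capitals mark bases that differ, 13 of 60 in the coding window and 2 of 60 in the intron window.
C4a-207 exon 21: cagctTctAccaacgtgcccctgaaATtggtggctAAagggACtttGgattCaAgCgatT
C4b-201 exon 21: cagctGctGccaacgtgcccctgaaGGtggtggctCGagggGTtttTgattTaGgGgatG
C4a-206 intron 39: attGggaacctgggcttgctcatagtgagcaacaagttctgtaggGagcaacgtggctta
C4b-203 intron 39: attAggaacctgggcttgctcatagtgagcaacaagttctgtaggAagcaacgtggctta
A stretch of 50 bases occurred in both genes at 35.2% of the positions of C4b-201 and of C4a-207, at 38.7% of those of C4b-203 and at 45.5% of those of C4a-206. The last coding exons, from exon 36 on, were 98.1% identical.

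All 9 genes were detected, meaning at least 1 TPM (a level per transcript length, scaled to one sum in each library) in both libraries. So were 13906 of 55499 nuclear genes, among them 12385 of the 22015 protein-coding ones. By mean RSEM-format TPM, C2 led the 9 genes and Cfb was lowest. By kallisto-format TPM, C4a stood above C2 in both libraries (56.1 against 51.3, and 50.6 against 49.1). C2, the protease that joins C4 in the classical convertase, stood at 60.35 and 58.30 TPM in replicates 1 and 2 (59.3 ± 1.45, SD, n = 2). C4b followed at 56.55 and 49.72 TPM (53.1 ± 4.83) and C4a at 47.75 and 40.40 TPM (44.1 ± 5.20). The ranges of these 3 genes did not overlap by RSEM, whereas those of C2 and C4a overlapped by kallisto. C1ra (41.0 ± 5.93 TPM), Serping1 (38.2 ± 6.87) and C1s1 (33.8 ± 8.32) came next by mean, and their ranges overlapped each other. The ranges of C1ra and Serping1 also overlapped that of C4a. In replicate 2, C1ra (45.24 TPM) and Serping1 (43.03 TPM) stood above C4a (40.40 TPM). C3 was at 19.5 ± 10.7 TPM, Cd55 at 9.63 ± 1.63 and Cfb at 7.09 ± 5.47. Neighbours Cd55 and Cfb overlapped.

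**Figure D1:**
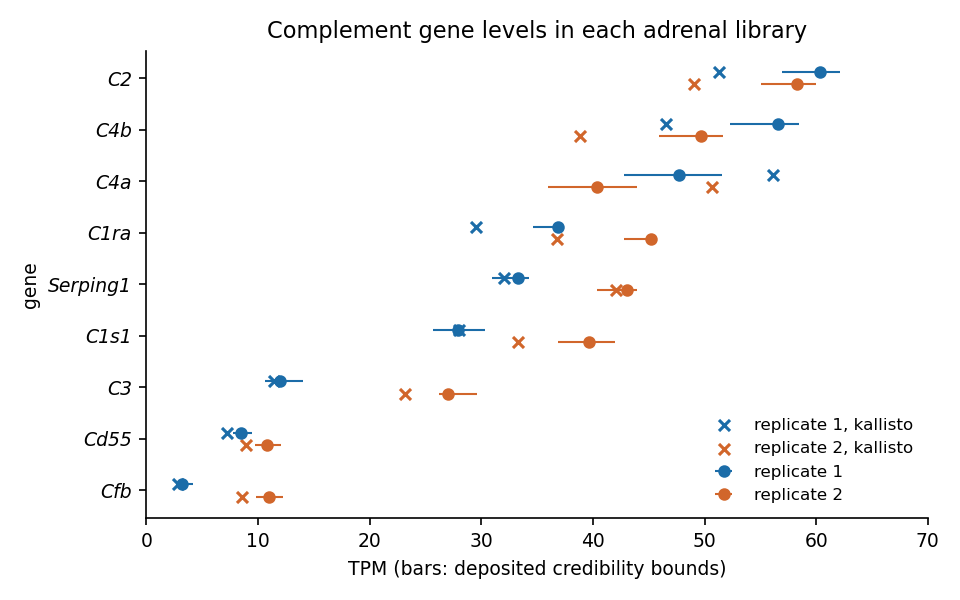
TPM (horizontal axis) of the 9 complement genes (vertical axis) in each library: dots are the RSEM-format values with their deposited credibility bounds, and crosses are kallisto-format values summed over transcripts. C3 and Cfb lie farther to the right in replicate 2, and C4a has both crosses well to the right of their dots.

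The TPM of C4a and C4b came mostly from short transcripts at the 3′ end of each gene, while the counts of C4b came mostly from its full-length transcript. C4b-201, the only coding transcript of C4b, held 2158.97 and 2914.06 expected counts, 73.9% and 82.6% of the gene's counts. At 14.60 and 18.34 TPM it gave only 25.8% and 36.9% of the gene's TPM. The rest was nearly all C4b-203, a retained-intron transcript of 749 bases, with 749.54 and 570.63 counts but 41.22 and 29.21 TPM. C4b-203 covers exons 39 to 41 with the 284 bases of intron 39. Dividing by a short length turns few counts into many TPM.

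C4a showed the same split more strongly. Its 4 transcripts of 4477 to 5371 bases held 335.96 and 340.01 counts and 2.31 and 2.16 TPM. Its 6 transcripts of 354 to 932 bases held 663.96 and 511.06 counts and 45.46 and 38.24 TPM, which is 95.2% and 94.7% of the gene's TPM. The leading short transcript, C4a-206, had 24.01 and 18.04 TPM and spans exons 40 and 41 with 146 bases of intron 39. C4a-209 was at 13.53 and 6.88 TPM and C4a-210 at 7.43 and 12.88 TPM. Short transcripts (under 1000 bases) took at least 50% of the TPM in both libraries for 265 of 4024 genes that have both a short transcript and one of at least 4000 bases, or 6.59%. C4a and C4b are 2 of these, and the median share over the 4024 genes was 19.0% in replicate 1 and 17.8% in replicate 2.

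**Figure D2:**
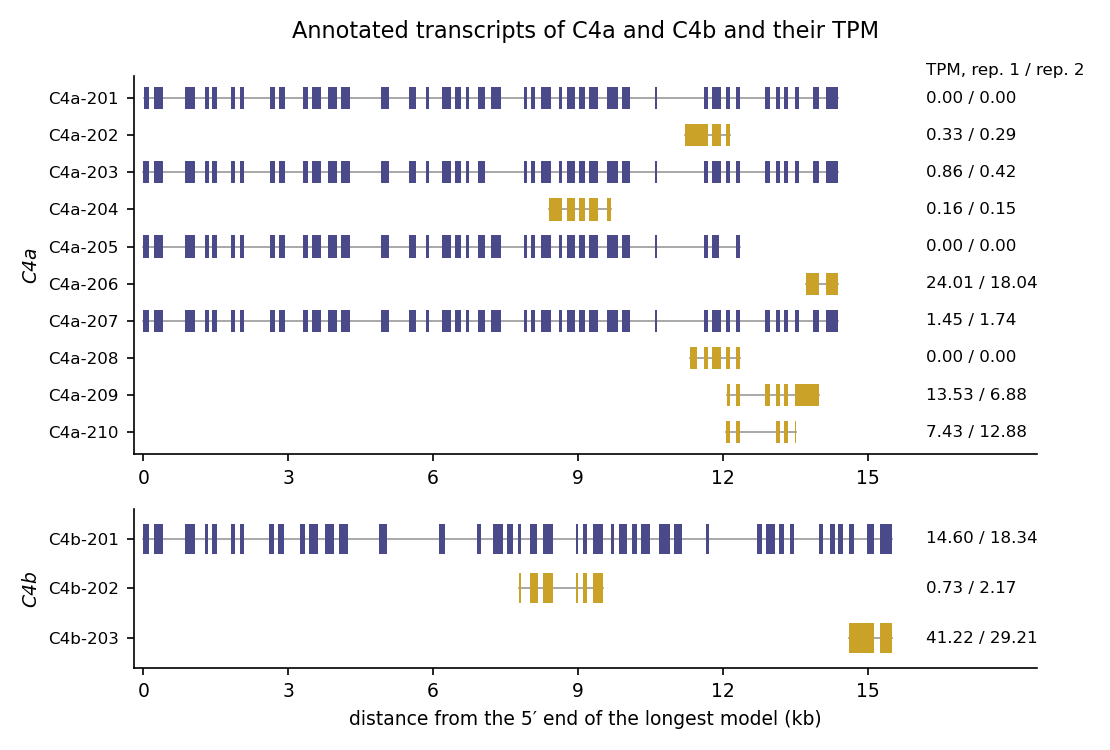
Exons (boxes) of each annotated transcript of C4a and C4b along the gene, in kb from the 5′ end (horizontal axis), blue for transcripts of at least 4000 bases and yellow for those under 1000, with the TPM in replicates 1 and 2 at the right. The transcripts of highest TPM, C4b-203 and C4a-206, lie at the 3′ end.

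Which gene of the pair appeared higher depended on the quantity compared. By RSEM-format TPM, C4b was 1.18 and 1.23 times C4a (1.21 ± 0.0328, SD, n = 2). By kallisto-format TPM the order turned, at 0.830 and 0.767 (0.799 ± 0.0441). By expected counts, which are not divided by length, C4b was 2.92 and 4.15 times C4a (3.53 ± 0.865). By kallisto-format counts it was 2.97 and 4.16 times C4a (3.57 ± 0.844). Among transcripts of at least 4000 bases the ratio of TPM was 6.32 and 8.49 by RSEM (7.41 ± 1.53) and 5.84 and 8.43 by kallisto (7.14 ± 1.83). This comparison of long transcripts was chosen after the values were seen. Both quantifiers thus put full-length C4b above full-length C4a in both glands. They also gave C4b more counts than C4a, at similar ratios, while the TPM of the whole genes differed in direction between them.

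**Figure D3:**
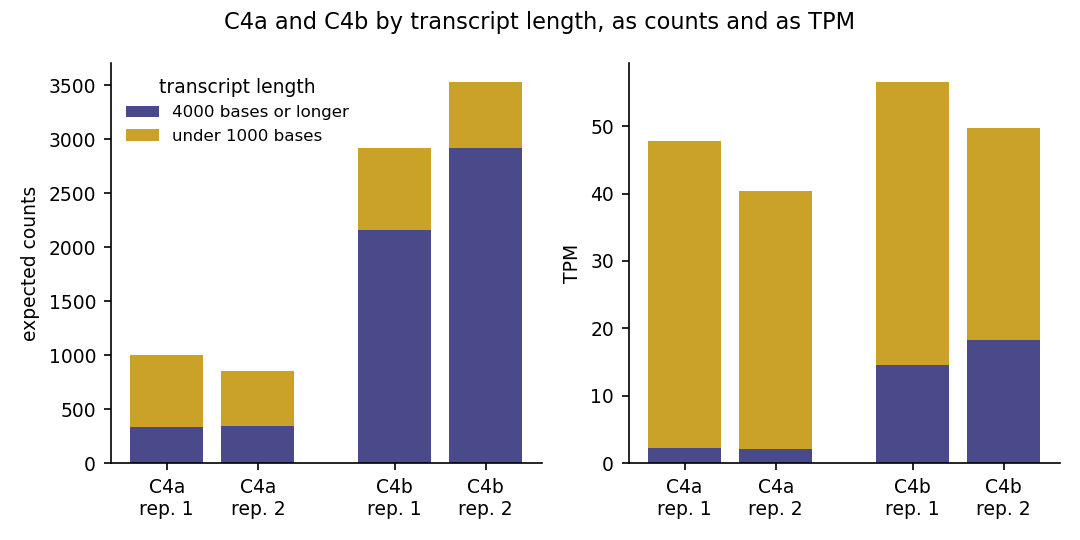
Expected counts (left vertical axis) and TPM (right vertical axis) of C4a and C4b in each library, stacked by transcript length. Long transcripts make up most of the counts of C4b and little of the TPM of C4a.

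At the gene level the deposited uncertainty of this split was small, and at the transcript level of C4a it was not. The posterior SD of the count was 9.12 and 9.29 for C4a and the same for C4b, beside 999.91 and 851.08 expected counts for C4a and 2922.09 and 3527.92 for C4b. C4a-207 had 214.04 and 275.77 counts with posterior SDs of 77.91 and 57.69, whereas C4a-206 had 286.56 and 231.25 counts with 6.73 and 6.22. None of the 9 genes had a posterior SD of 0.1 or more of its mean count, against 1.84% of the 12853 nuclear genes that averaged 100 counts or more. After rescaling to protein-coding genes, RSEM and kallisto lay at least 1.5-fold apart in both libraries for none of the 9, against 2.3% of 12017 protein-coding genes. C4a is not annotated as protein-coding and is not among those 12017. Of the 12853 nuclear genes, 506 were that far apart. Of the 9 genes, C4a came nearest to the limit, with RSEM at 0.798 and 0.753 times kallisto.

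Between the glands, C4a was lower in replicate 2, and C4b did not differ beyond counting error. Ratios here are replicate 2 over replicate 1 of counts scaled by TMM (an edgeR method that sets library sizes from most genes), with a 95% interval that covers counting error only. Since each side is 1 animal, there is no test and no p-value. The ratio was 0.732 (0.667 to 0.802) for C4a and 1.04 (0.988 to 1.09) for C4b, and 0.960 (0.919 to 1.00) for their summed counts. Within both genes the short transcripts had the lower ratio. It was 0.662 (0.588 to 0.744) for those of C4a and 0.692 (0.621 to 0.770) for those of C4b, against 0.870 (0.746 to 1.01) and 1.16 (1.10 to 1.23) for the long ones. Cyp21a1, the 21-hydroxylase gene next to C4a, stood at 3263 and 2775 TPM, a ratio of 0.780 (0.774 to 0.785). Its TPM was 68.3 and 68.7 times that of C4a, and 57.7 and 55.8 times that of C4b. The 6 cortex markers, which include Cyp21a1, had a median log2 ratio of -0.395.

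The largest differences between the glands among the 9 genes were in Cfb and C3, the components that form the alternative convertase. Cfb (chr17:34856374-34862518, minus strand), which encodes factor B, had 177.45 and 736.00 expected counts and 3.22 and 10.95 TPM. Its ratio was 3.57 (3.03 to 4.24). C3 (chr17:57203970-57228136, minus strand), the central component of all pathways, had 1447 and 4091 counts and 11.92 and 26.99 TPM, a ratio of 2.43 (2.29 to 2.58). Both were higher in replicate 2 by both quantifiers, with kallisto at 2.82 and 8.54 TPM for Cfb and 11.4 and 23.2 TPM for C3. These 2 of the 9 genes exceeded 2-fold in favour of replicate 2 with an interval above 1, a share to be read against 2.4% of 12853 nuclear genes. None was 2-fold lower, against 1.1% of those genes.

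C2 did not move with Cfb, although only 85 bases separate the genes on the same strand. C2 (chr17:34862604-34898265) had 3739.92 and 4040.00 counts, a ratio of 0.929 (0.888 to 0.971). The TPM of C2 was 18.7 times that of Cfb in replicate 1 and 5.32 times in replicate 2. A read-through entry, Gm20547, overlaps both genes on their strand, and 81.8% of the 50-base stretches of Cfb-201 and 58.0% of those of C2-201 also occur in it. It was given 6.63 and 0 expected counts by RSEM and 8.59 and 47.7 by kallisto. Summing Cfb with Gm20547 left a ratio of 3.44 (2.92 to 4.06).

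C3 is the only one of the 3 convertase genes C2, C3 and Cfb with an entry in the RefSeq promoter table (GRCm38.p6), and its last 120 bases before the start, chr17:57228137-57228256 on the minus strand, are shown because C3 differed between the glands. Capitals mark the 1 match to the C/EBP motif TTGCNNAA, searched on both strands, which begins 45 bases before the start.
C3 promoter: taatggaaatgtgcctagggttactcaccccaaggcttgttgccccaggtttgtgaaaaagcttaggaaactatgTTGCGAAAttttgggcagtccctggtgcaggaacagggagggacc
The motif occurs in 10.8% of 32851 promoter windows of 250 bases before to 50 after a start. Among the 4 genes of the list with an entry, it was found for C3, C1ra and 1 of 2 entries of C1s1, and not for Cd55. The STAT motif TTCNNNGAA, in 8.30% of all windows, was found for C1ra only, and TATAAA, in 13.6%, for C3 only. The 120 bases shown for C3 do not contain TATAAA on either strand, so that match lies elsewhere in the window. A match is a description of letters and not of binding.

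Markers of fat also differed between the same 2 glands, with ratios from 3.37 (Plin1) to 13.4 (Car3) among adipocyte markers. Each of the 7 adipocyte markers passed 2-fold, in favour of replicate 2, and their summed level was 235 TPM in replicate 1 and 1995 TPM in replicate 2. Car3 stood at 46.40 and 669.86 TPM and Fabp4 at 62.06 and 572.39 TPM. The 3 brown adipocyte markers summed to 16.7 and 232 TPM, with Ucp1 at 0.14 and 80.62 TPM. Of 6 acute phase genes, Hp (13.83 and 96.57 TPM) and Orm1 (2.08 and 18.35 TPM) were at least 2-fold higher in replicate 2. Lcn2 went the other way, from 0.88 to 0.12 TPM on 20 and 3 counts, and Saa3 stood at 0.68 and 0.42 TPM. Saa1 had 0 and 1 counts, and Saa2 was listed at 0 in both.

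The sums of the other marker lists differed less. The 8 macrophage markers summed to 160 and 281 TPM, with Lyz2 at 98.00 and 174.91 TPM, and 1 of them passed 2-fold, Cd163, which was 5.80 times higher in replicate 2. The 7 fibroblast and capsule markers summed to 140 and 246 TPM, with Dcn at 73.34 and 123.93 TPM, and 2 passed 2-fold, Col3a1 (3.07) and Col1a1 (2.03). The 6 endothelial markers summed to 323 and 328 TPM. The 8 hepatocyte markers summed to 13.3 and 16.0 TPM, led by Alb at 7.38 and 8.40 TPM, so markers of the main source of plasma complement were low in both. Lymphocyte markers summed to 1.17 and 1.82 TPM, with 0 of 4 detected. The defining markers of the gland itself were high: 6 cortex markers summed to 21350 and 18002 TPM and 5 chromaffin markers to 3101 and 2204 TPM. Among the chromaffin markers, 2 passed 2-fold downwards, Pnmt (0.198) and Th (0.459). The part of these cell types in the values of the 9 genes was not tested. In whole tissue, more cells of a type and more RNA per cell cannot be told apart.

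The C1 proteases and their inhibitor were modestly higher in replicate 2. C1ra (chr6:124512405-124523443, plus strand) had 2974.82 and 3923.26 counts and 36.85 and 45.24 TPM, a ratio of 1.13 (1.08 to 1.19). C1s1 (chr6:124530345-124542359, minus strand) had 1858 and 2809.42 counts and 27.89 and 39.66 TPM, a ratio of 1.30 (1.23 to 1.38). Serping1 (chr2:84765387-84775444, minus strand) had 1533 and 2143 counts and 33.31 and 43.03 TPM, a ratio of 1.20 (1.13 to 1.28). None reached 2-fold. The 3 genes stayed close to each other within each gland: C1ra was 1.32 and 1.14 times C1s1 by TPM, and Serping1 was 1.19 and 1.08 times C1s1.

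Both proteases have a close copy, and the copies were low. C1ra-201 and C1rb-201 were 98.0% identical over 2429 aligned columns, and 48.0% of the 50-base stretches of C1ra-201 also occur in C1rb. C1rb stood at 4.62 and 6.53 TPM, so that C1ra was 7.98 and 6.93 times higher. C1s2 (95.9% identical to C1s1 over 2661 columns) stood at 1.35 ± 0.212 TPM, and C1s1 was 23.2 and 26.4 times higher. Counts of C1ra and C1rb together gave a ratio of 1.15 (1.10 to 1.20), and those of C1s1 and C1s2 together 1.29 (1.22 to 1.37). The quantifiers split C1s1 itself differently: RSEM gave C1s1-204 1347.78 and 1986.90 counts and C1s1-203 451.06 and 734.35, while kallisto gave C1s1-204 46.6 and 359 and C1s1-203 1712 and 2338. The RSEM-format table puts a posterior SD of 158.96 and 214.13 on C1s1-204.

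Cd55 (chr1:130439027-130462744, minus strand), the surface regulator among the 9, did not differ between the glands beyond counting error. It had 575.53 and 732.85 counts and 8.48 and 10.78 TPM, a ratio of 1.09 (0.980 to 1.22). Its coding transcript Cd55-201 gave 71.3% and 58.9% of its TPM, and the retained-intron transcript Cd55-205 20.4% and 22.8%. Its copy Cd55b, 91.0% identical to it over 1262 aligned columns, was at 0.10 and 0.24 TPM and not detected. Cr1l, which encodes the rodent surface regulator Crry with a similar role, was higher than Cd55 at 35.07 and 32.39 TPM.

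Over the 9 genes, the median log2 ratio of CPM + 1 was 0.18, beside 0.01 over all nuclear genes and 0.03 over protein-coding ones. The log2 ratio was above 0 for 7 genes and below 0 for 2. The interval lay above 1 for C3, Cfb, C1ra, C1s1 and Serping1, and below 1 for C2 and C4a. Among the 18181 nuclear genes averaging 10 counts or more, the log2 ratio was above 0 for 9436 and below 0 for 8745. Their interval lay above 1 for 4756 and below 1 for 4298, so intervals that leave out 1 were common.

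The rest of the complement system was read from a list of 44 further genes. Of these, 24 were detected, a share near that of all nuclear protein-coding genes (12385 of 22015). Among the 44, Clu, which encodes the terminal pathway inhibitor clusterin, led at 134.01 and 142.11 TPM. Cd59a, which encodes an inhibitor of membrane attack, stood at 40.41 and 41.58 TPM. C1qb, a chain of C1q, was at 31.68 and 37.63 TPM. By class, 6 of 6 C1q and C1 protease genes, 2 of 8 lectin pathway genes, 2 of 2 alternative pathway genes, 2 of 7 terminal genes, 6 of 12 regulators and 6 of 9 receptors were detected. RSEM gave no count in either library to Mbl2, Fcnb and Colec10, named after their values were seen, while kallisto gave Mbl2 a count of 1 in replicate 2. At this depth a gene with no count could still have up to 3, which is 0.101 CPM in replicate 1 and 0.0871 in replicate 2.

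Of the 44 genes, 23 averaged 100 counts or more. Of these, 2 passed 2-fold upwards in replicate 2 and 0 downwards, beside the 2.4% and 1.1% of nuclear genes given above. Cfd, which encodes factor D and is known as adipsin for its expression in fat, stood at 5.36 and 83.91 TPM, a ratio of 14.4 (12.0 to 17.4). C6, a subunit of the membrane attack complex, stood at 2.29 and 12.63 TPM, a ratio of 4.79 (4.08 to 5.65). Masp1, a lectin pathway protease named after its values were seen, lay at the limit on the other side, with 9.31 and 5.08 TPM and a ratio of 0.502 (0.451 to 0.558). It crosses the limit at 0.498 when TMM factors are taken from genes averaging 10 counts or more, so 0 lower genes becomes 1. The median log2 ratio of the 32 genes averaging 10 counts or more was 0.27, with 25 above 0 and 7 below. Among the 14660 nuclear protein-coding genes averaging 10 counts or more, 8008 lay above 0 and 6652 below.

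**Figure D4:**
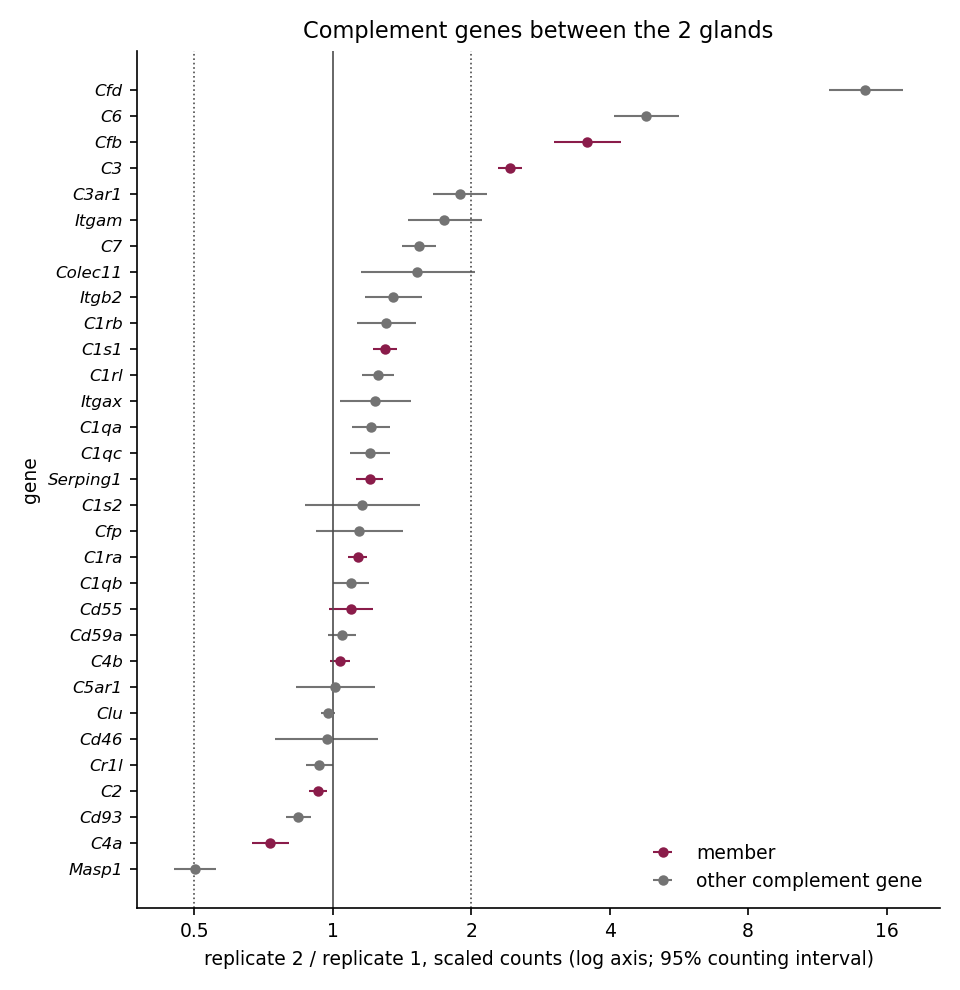
Ratio of scaled counts, replicate 2 over replicate 1 (horizontal log axis, with 95% counting intervals), of the 9 genes and of the other complement genes averaging 100 counts or more, 1 of which is not shown (vertical axis). Dotted lines mark 2-fold: Cfd, C6, Cfb and C3 lie beyond it on the right, and Masp1 lies on it at the left.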

How the data were processed

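Per the file headers, the deposited RSEM-format tables hold expected counts (not normalized), TPM, posterior count means with their SDs, credibility bounds, and each transcript's percent of the TPM of its gene. Deposited kallisto-format tables hold estimated counts and TPM per transcript. The text deposited beside them names mm10 and GENCODE M21. For the quantifiers, versions are not given in the sources used. Spike-ins, phiX and entries named by a bare number were left out of library sizes.

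Counts were rounded and scaled with TMM over all annotated genes (edgeR 4.0.16 in R 4.3.3). As an alternative, size factors came from DESeq2 1.42.0. Intervals are exact conditional binomial (scipy 1.17.1). They cover counting error only and not variation between animals. Each read is treated as an independent count, although without molecular identifiers reads cannot be counted as molecules. Log2 ratios are of CPM + 1. The calculation was tested on simulated data. Transcripts were aligned with Biopython 1.88.

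The genes and lists were chosen with earlier results of these data known. Named genes are the 9 genes, the 6 other complement genes of highest mean TPM, those past 2-fold, copies of the 9, Cyp21a1, overlapping same-strand genes, and the 2 highest markers of each list. Transcripts, Cyp21a2-ps, Masp1, the markers beyond those 2 and genes at 0 were named after their values were seen. Of the genes this rule names, 1 is not reported here.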

Additional observations from a re-analysis of the deposited data

How the results depend on the processing

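The C4b to C4a ratio of 1.21 by RSEM TPM turned to 0.799 with kallisto TPM, and rose to 3.53 with expected counts and, in comparisons added after seeing the data, to 7.41 (RSEM) and 7.14 (kallisto) over transcripts of at least 4000 bases. It was 1.18 to 1.23 with either library left out. Among the other complement genes, 2 at least 2-fold apart became 4 with a mean of at least 10 counts, 4 with no minimum and 7 at 1.5-fold (6 higher, 1 lower). Taking TMM factors from genes averaging 10 counts or more was also added after seeing the data. It made this count 3, since Masp1 moved from 0.502 to 0.498, and changed no call among the 9 genes. At the lowest fold limit tried, the quantifiers differed on 1 of the 9 genes, C4a, in place of 0. Of 73 alternative log2 ratios of the 9 genes, 68 kept direction and call. With spike-in scaling the interval of C2 included 1 (0.975, 0.932 to 1.02). The intervals of C4b and Cd55 lay above 1 with total-count scaling (1.07 and 1.12) and spike-in scaling (1.09 and 1.15). C3 and Cfb stayed at least 2-fold higher in every setting tried. The cause of these shifts was not tested, and neither was that of the change in the C4b to C4a order by TPM between quantifiers. No paired analysis was possible because the study has 1 group.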
